A study of Mus musculus with 4 samples.

Results

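Lacc1, Bmp4, Ly6k, Smim10l1, Spg20, Tspoap1 and Pcyox1l are 7 genes with more RNA sequencing reads in a JQ1-resistant than in a JQ1-sensitive mouse lymphoma line. They were chosen by the difference in counts between these same 4 libraries, so their levels and folds are described here without a test. The table of counts held all 7 among its 16591 genes, and 11945 genes had enough reads to be tested. JQ1 inhibits BET proteins, readers of histone acetylation that help RNA polymerase to transcribe. The 4 libraries comprised 2 of the line labelled JQ1S (JQ1-sensitive) and 2 of the line labelled JQ1R (JQ1-resistant). Both are Eμ-Myc lines of the C57BL/6 strain, in which Myc is driven by the immunoglobulin heavy-chain enhancer in B-lineage cells, and both were grown at early passage in the same medium. No drug is named as added before harvest. Each condition is a single line, so resistance and every other property in which the lines differ cannot be told apart. Whether replicates were separate cultures is not stated in the labels, and p-values reflect the spread between these libraries alone, which may be technical.

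The 7 genes belong to no single pathway. Lacc1 (also known as FAMIN) encodes an enzyme of purine nucleoside and amino acid metabolism that is best known from macrophages. Bmp4 encodes a secreted ligand of the TGF-β superfamily, which binds type I and type II receptor kinases, leads to phosphorylation of receptor SMAD proteins and induces targets such as the Id genes. Ly6k encodes a small GPI-anchored surface protein of the LY6 family with a known role in sperm. Smim10l1 is annotated as a small integral membrane protein. Spg20 encodes spartin, which acts in lipid droplet turnover and endosomal trafficking and has been described as an inhibitor of BMP signalling. Tspoap1 encodes a RIM-binding protein that also binds the mitochondrial translocator protein TSPO. Pcyox1l is a relative of prenylcysteine oxidase, which acts on the remnants of prenylated proteins.

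Total counts were 10346007 to 13048103 per library. Levels are given in CPM, which is counts divided by the TMM-scaled library size and multiplied by 1000000. The 7 B-cell markers reported had reads in both lines, and their summed level was 1409 and 1473 CPM in the sensitive and 1567 and 1491 CPM in the resistant libraries. Cd79a, Cd79b, Pax5, Ebf1 and Ptprc did not pass the edgeR test, with Cd79a averaging 438.1 and 439.7 CPM. Of the 7 markers 2 passed at an adjusted p below 0.05, against 3.73% of all tested genes. A raw edgeR p below 0.05 was found for 4 of the 7, Cd79b and Ptprc among them, against 16.9% of all tested genes. Ms4a1, which encodes CD20, rose from 1.31 and 1.36 to 8.14 and 7.06 CPM (log2 change 2.50 ± 0.23), and Cd22 rose by 0.28 ± 0.06 on the log2 scale (adjusted p = 0.0129 in edgeR). The part of this B-cell marker difference in the results below was not tested. The 7 markers of fibroblasts and stroma and the 3 of erythroid cells had no row among the genes analysed here, which begin at 4 counts summed over the libraries. Of 6 macrophage markers 3 had a row, with sums of 3.77 and 4.27 CPM in the sensitive and 4.94 and 5.46 CPM in the resistant libraries. In these bulk samples, fewer cells of a type and less RNA per cell cannot be told apart.

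Start-site regions are shown for 3 of the genes, because separate genes that differ in the same direction can be compared by the letters before their start. RefSeq windows of 300 bases, from 250 before to 50 after the start, were examined for 4 of the 7 genes (GRCm38.p6). No window was examined for Ly6k, Tspoap1 or Pcyox1l, so the motif and base composition results leave these genes out. Only stretches without annotated UTR are printed, 5′ to 3′ on the strand of the gene. Capitals mark matches to 7 motifs searched on both strands, namely the E-box CACGTG, the TATA box TATAAA, the GC box in the form GGGCGG, the CCAAT box, the EBF motif, the AP-1 motif and the cAMP response element in the form TGACGTCA.
Lacc1, chr14:77036642-77036771, minus strand: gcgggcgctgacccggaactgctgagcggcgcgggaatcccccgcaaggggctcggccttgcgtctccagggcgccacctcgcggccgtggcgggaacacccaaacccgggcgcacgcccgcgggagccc
Bmp4, chr14:46390670-46390919, minus strand: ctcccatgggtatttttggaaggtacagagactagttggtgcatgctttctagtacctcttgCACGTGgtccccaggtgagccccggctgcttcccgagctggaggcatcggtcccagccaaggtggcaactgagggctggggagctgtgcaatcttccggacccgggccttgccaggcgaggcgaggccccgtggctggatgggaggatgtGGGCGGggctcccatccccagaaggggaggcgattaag
Spg20, chr3:55111916-55112107, plus strand: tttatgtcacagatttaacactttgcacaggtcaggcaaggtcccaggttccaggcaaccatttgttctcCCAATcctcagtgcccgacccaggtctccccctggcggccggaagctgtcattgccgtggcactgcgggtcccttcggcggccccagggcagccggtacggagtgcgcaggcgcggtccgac

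The 3 stretches had no motif in common. That of Bmp4 held an E-box at position -188 from the RefSeq start and a GC box at -38, and that of Spg20 held a CCAAT box at -180. The stretch of Lacc1 held 0 matches to the 7 motifs, and its whole window held 1 GC box, at position 11 after the start. The window of Smim10l1, in which no stretch free of annotated UTR was long enough to print, held a GC box on the opposite strand at position 38. Among 32851 RefSeq windows of the same length, 7.15% held an E-box, 35.7% a GC box and 37.4% a CCAAT box. None of the 4 windows held the EBF motif, which 0.904% of all windows held, or the TATAAA motif (13.6%), the AP-1 motif (7.81%) or the cAMP response element (1.79%). A match is a string of letters and not evidence of a bound site.

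The windows also differed in base composition. The Lacc1 window held 45 CpG dinucleotides at 79.3% GC, more than 98.1% of all windows by CpG count. Spg20 had 24 CpG dinucleotides (66.7% GC), Bmp4 12 (64.0%) and Smim10l1 11 (49%), against a median of 7 and 52.7% GC over all windows. The printed Lacc1 stretch of 130 bases lies between the first exon of the protein-coding Lacc1 transcript and the start of the oppositely oriented gene Ccdc122, at 77036772 on the plus strand. In GENCODE M21 a retained-intron transcript of Lacc1 runs through this stretch and into Ccdc122, so the annotated genes overlap, with 3.65% of the exonic bases of Lacc1 shared on the other strand. Ccdc122 had no row among the genes analysed here.

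The 7 genes lie on 6 chromosomes and all are protein-coding, with positions given on GRCm38. Lacc1 lies on chromosome 14 at 77024200 to 77036904, on the minus strand, and showed the widest difference of the 7. It had 3 and 3 counts in the sensitive libraries against 81 and 94 in the resistant libraries. In CPM these were 0.231 and 0.291 against 7.40 and 7.90, so the groups stood far apart and did not overlap. The ratio of summed counts, scaled to library size, was 29.8, with an exact 95% interval of 13.4 to 82.2 that covers counting error only. The fitted log2 change was 4.84 ± 0.33 (SE), which ranked 3 among the 11945 tested genes. Lacc1 had reads in both sensitive libraries, but a count of 3 has an exact Poisson interval of 0.619 to 8.77, so its sensitive level is known only roughly.

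Bmp4, the only BMP ligand that reached the test, was the least abundant of the 7 in resistant cells. It lies on chromosome 14 at 46383520 to 46390669, on the minus strand. Its counts were 7 and 7 in sensitive and 34 and 34 in resistant libraries, or 0.539 and 0.679 CPM against 3.11 and 2.86 CPM. Both resistant libraries lay above both sensitive ones, by 4.21-fold at the closest pair. The scaled ratio of summed counts was 4.95 (exact 95% interval 2.76 to 9.54) and the log2 change was 2.29 ± 0.35 (SE). Lacc1 and Bmp4 passed the filter on low counts only through the resistant libraries, since neither reached 10 counts in a sensitive library. The other 5 genes had at least 10 counts in every library.

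Ly6k lies on the minus strand of chromosome 15 at 74796874 to 74799986. It stood at 20 and 29 counts in the sensitive and 109 and 129 in the resistant libraries, which is 1.54 and 2.81 CPM against 9.96 and 10.8 CPM. The sensitive libraries differed 1.83-fold from each other, the widest replicate gap of the 7 genes, and still lay below both resistant libraries. The log2 change was 2.30 ± 0.22 (SE). Omitting sensitive replicate 1 gave 1.88 and omitting sensitive replicate 2 gave 2.75. Of the exonic bases of Ly6k, 47.6% are shared with the antisense gene Gm17189, which had 0 and 1 counts in the sensitive and 11 and 8 in the resistant libraries. The strand setting of the counting is not given in the sources used here. To which gene, if any, reads in the shared bases were counted is therefore not known. This also limits the level of Ly6k per kilobase of exon given below.

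Smim10l1, on the plus strand of chromosome 6 at 133104909 to 133110899, was counted 33 and 33 times in the sensitive and 143 and 188 times in the resistant libraries. Its CPM was 2.54 and 3.20 against 13.1 and 15.8, a log2 change of 2.35 ± 0.18 (SE). The resistant libraries differed 1.21-fold and neither came near the sensitive level.

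Spg20, on the plus strand of chromosome 3 at 55112108 to 55137322, had 77 and 67 counts in sensitive and 215 and 231 in resistant libraries. Its CPM values were 5.93 and 6.50 against 19.7 and 19.4, with resistant libraries within 1.01-fold of each other. The log2 change was 1.66 ± 0.13 (SE), a 3.15-fold difference in mean CPM.

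Tspoap1 (plus strand of chromosome 11, 87760541 to 87785928) and Pcyox1l (minus strand of chromosome 18, 61696837 to 61707635) differed least. For Tspoap1 the counts were 92 and 84 in the sensitive and 181 and 224 in the resistant libraries, or 7.08 and 8.15 against 16.6 and 18.8 CPM, with a log2 change of 1.23 ± 0.14 (SE). For Pcyox1l they were 66 and 55 against 127 and 145, or 5.08 and 5.34 against 11.6 and 12.2 CPM, with a log2 change of 1.19 ± 0.15 (SE). Even the closest pair of libraries across the lines differed 2.03-fold in Tspoap1 and 2.18-fold in Pcyox1l. These genes ranked 86 and 92 among tested genes by log2 change, and 124 tested genes had a log2 change of at least 1.

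**Figure D1:**
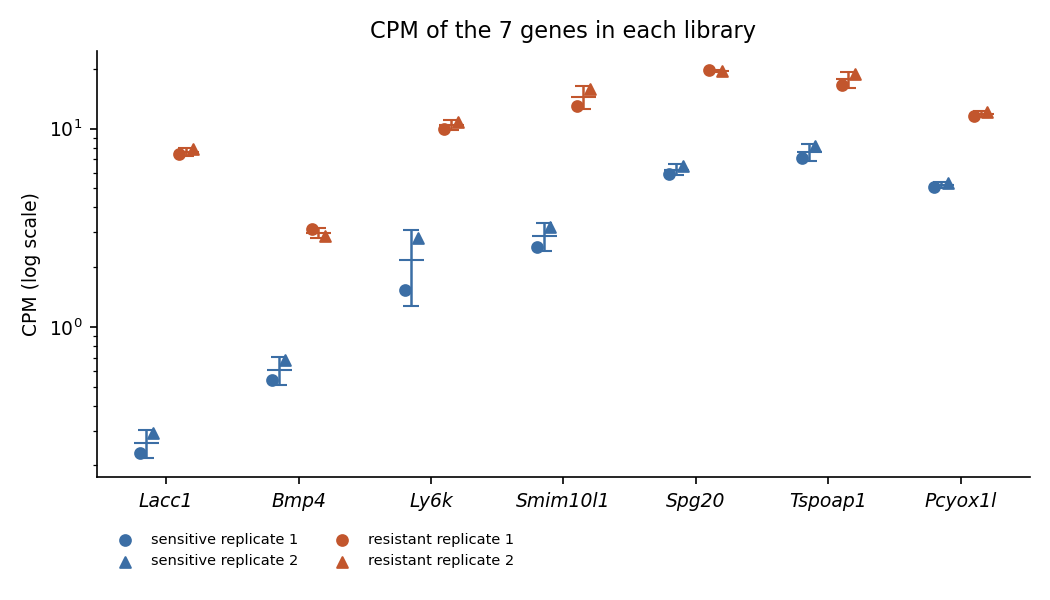
CPM on a log axis for the 7 genes in the 2 sensitive libraries (blue) and the 2 resistant libraries (orange), with circles for replicate 1, triangles for replicate 2, and bars for the mean and SD. The groups are separate for every gene, from about 0.26 to 7.65 CPM on average in Lacc1 to 5.21 to 11.9 CPM in Pcyox1l, and no gene is at 0 in any library.

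All 7 genes had reads in both sensitive libraries, so "switched" in the sense of absent and then present was not what the counts showed for the 5 genes with 10 or more counts in every library. Whether the 3 and 3 counts of Lacc1 and the 7 and 7 of Bmp4 exceed what stray reads give was not tested. In all 7 the resistant libraries lay above the sensitive ones, a separation that 24.1% of tested genes showed in this direction. Nothing is read from it, because the genes were chosen on this difference. The median log2 change of the 7 was 2.29, against 0.003 over all tested genes. The plot of all tested genes shows them in the lower part of the expression range.

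**Figure D2:**
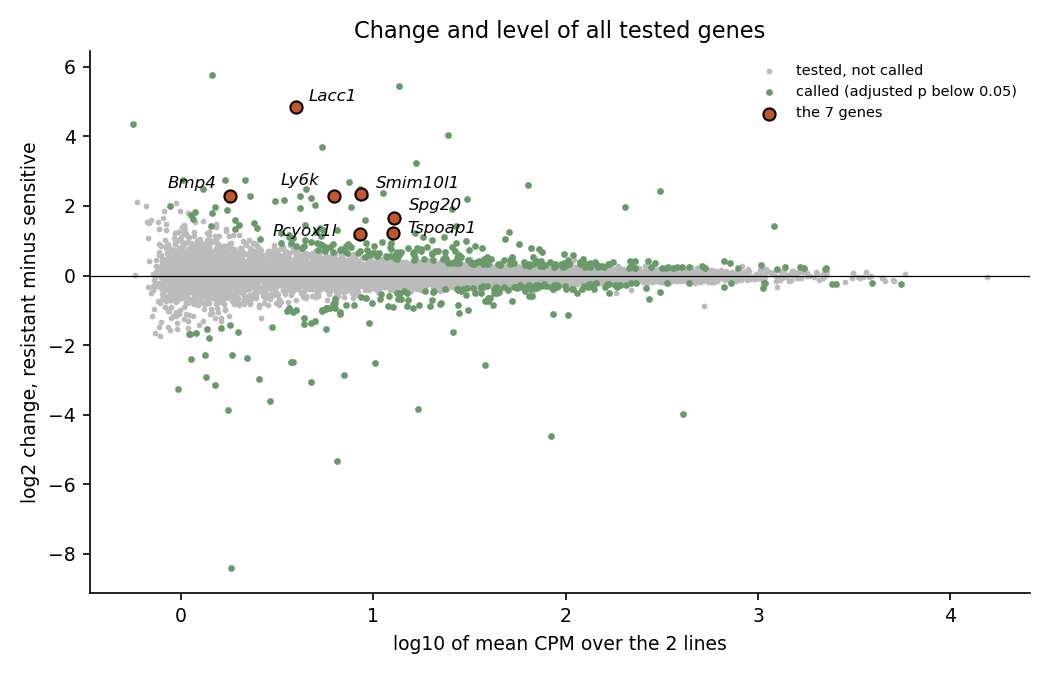
Log2 change between the lines (vertical axis) against log10 of mean CPM (horizontal axis) for all 11945 tested genes, with genes at an adjusted p below 0.05 in green and the 7 genes in orange. The 7 sit between log2 changes of 1.19 and 4.84, at mean levels well below the most abundant genes.

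Levels of different genes were compared per kilobase of annotated exon. In resistant cells Ly6k was highest at 12.6 ± 0.75 CPM per kb (mean ± SD, n = 2), above Smim10l1 at 4.71 ± 0.63 and Pcyox1l at 4.499 ± 0.155, whose libraries overlapped. Spg20 (2.54 ± 0.02), Lacc1 (2.10 ± 0.10), Tspoap1 (1.86 ± 0.17) and Bmp4 (1.33 ± 0.08 CPM per kb) followed without overlap between neighbours in the order. These values placed the genes between percentile 17.2 (Bmp4) and percentile 64.9 (Ly6k) of the 11861 tested genes with an annotated length.

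The order was different in sensitive cells. Ly6k (2.63 ± 1.09 CPM per kb) and Pcyox1l (1.97 ± 0.07) overlapped at the top, and Smim10l1 (0.936 ± 0.153), Spg20 (0.809 ± 0.053) and Tspoap1 (0.802 ± 0.080) overlapped below them. Bmp4 (0.271 ± 0.044) and Lacc1 (0.072 ± 0.012 CPM per kb) were lowest, and their libraries did not overlap. Counts were 7 and 7 for Bmp4 and 3 and 3 for Lacc1, so these SDs reflect library size and not counting error. Exact Poisson intervals per library were 2.81 to 14.4 counts for Bmp4 and 0.619 to 8.77 for Lacc1, so their order is known only roughly. By its mean Lacc1 stood at the bottom in sensitive cells, at percentile 0.194 of tested genes. In resistant cells it stood at percentile 23.6, above Tspoap1 and Bmp4. It passed the filter on low counts only through the resistant libraries, and genes low in both lines are not among the tested genes. Nothing is therefore read from its percentile in sensitive cells.

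**Figure D3:**
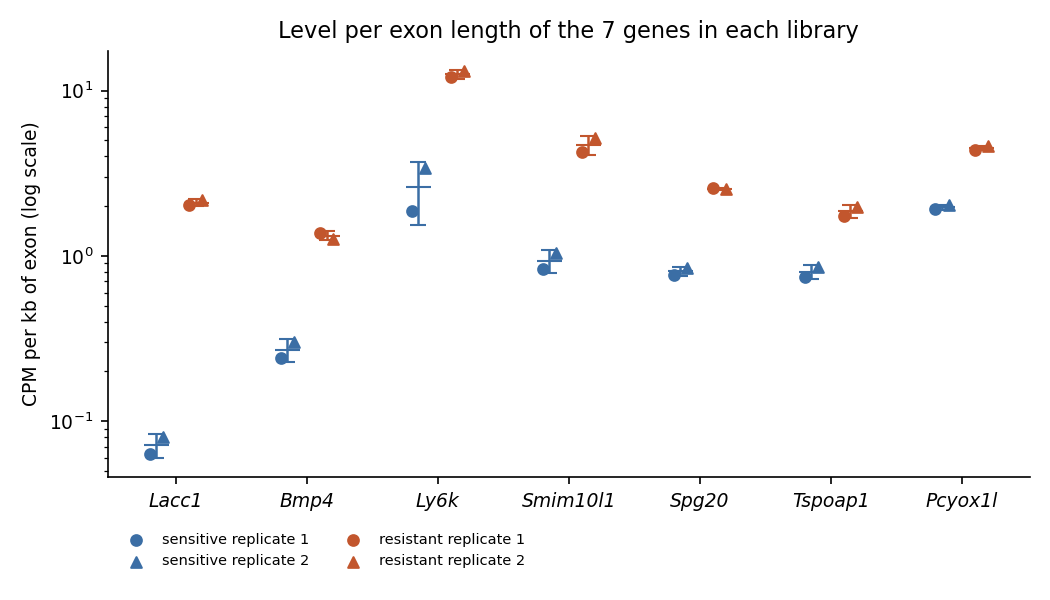
CPM per kilobase of exon on a log axis for the 7 genes in each library, with colours and symbols as in the plot of CPM and bars for the mean and SD of 2 libraries. Ly6k is highest in resistant cells (12.6 CPM per kb), and Lacc1 moves from the lowest level in sensitive cells (0.072) to the middle of the set (2.10).

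Genes around the 7 were examined to see whether the difference extended along the chromosome. Within 1 Mb of a member, 404 genes are annotated, 160 of them protein-coding, and 78 had enough reads to be tested. Of these, Cd74 and Ypel2 rose and Tcof1 fell in resistant cells, 3 of 78 called genes or 3.85%, where called means an adjusted p below 0.05 in the quasi-likelihood test of edgeR over all 11945 genes. Over all tested genes 3.73% were called, 2.2% higher and 1.52% lower, so the share near the 7 genes was close to the background. DESeq2 called 1.74% and limma-voom 3.69% of the tested genes. In edgeR the share was 3.68% with DESeq2 size factors, 3.56% with library size only, 3.57% with upper-quartile scaling, 2.94% with no filter and 4.98% with a replicate block. The median log2 change of the 78 was 0.017, and 42 of them had a positive sign.

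Cd74, the MHC class II invariant chain, lies 884 kb beyond Pcyox1l and was at 20.2 and 16.5 CPM in the sensitive line against 36.1 and 34.7 CPM. Its log2 change was 0.94 ± 0.10 (SE) with an adjusted p of 2.71e-05 (edgeR), and it was called under all 11 alternative analyses. Tcof1, a nucleolar factor of ribosome production, lies in the same window 848 kb away, at 349 and 376 against 310 and 309 CPM (log2 change -0.23 ± 0.06, adjusted p = 0.0355 in edgeR). Ypel2, 767 kb from Tspoap1, was at 33.6 and 33.9 against 45.0 and 40.9 CPM (0.35 ± 0.08, adjusted p = 0.0286 in edgeR). DESeq2 called neither Tcof1 nor Ypel2, and both lost their calls without resistant replicate 1, Tcof1 also without resistant replicate 2. Their adjusted p-values over the 11 alternatives ran from 5.01e-07 to 0.388 for Tcof1 and from 0.00224 to 0.382 for Ypel2. Omitting sensitive replicate 1 gave 9 called neighbours (11.3% called over all tested genes) and omitting sensitive replicate 2 gave 11 (9.68%). Omitting resistant replicate 1 gave 1 (2.45%) and omitting resistant replicate 2 gave 2 (2.21%).

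The nearest tested genes did not pass the test. Next to Pcyox1l, Grpel2, a mitochondrial import cochaperone 4.79 kb away, had a log2 change of 0.06 ± 0.09 (SE), and the kinase Csnk1a1 on the other side had 0.04 ± 0.06. Next to Tspoap1, Mir142hg, the host transcript of miR-142 at 3.27 kb, stood at 13.7 and 12.4 against 14.4 and 18.2 CPM (0.31 ± 0.13, adjusted p = 0.239 in edgeR). On the other side of Tspoap1 the ciliary gene Mks1 was at 7.93 and 9.80 against 11.1 and 10.8 CPM (0.32 ± 0.15, adjusted p = 0.283 in edgeR).

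Ly6k lies in a cluster of LY6 genes. Ly6d, 33.3 kb away, was at 2.08 and 3.01 CPM in the sensitive libraries against 3.38 and 3.78 CPM (log2 change 0.52 ± 0.25, adjusted p = 0.313 in edgeR). On the other side, 77.0 kb away, 2010109I03Rik, which RefSeq also lists as Ly6m, was near the floor at 0.539 and 1.26 against 0.731 and 1.09 CPM. Ly6e, the abundant LY6 gene of these cells, stood at 300.4 and 304.8 CPM on average (0.02 ± 0.06, adjusted p = 0.904 in edgeR).

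Lacc1, Bmp4, Smim10l1 and Spg20 had few expressed genes close by. The nearest tested genes were 215 and 887 kb from Lacc1 (the pseudogene Gm10132 and Nufip1) and 370 and 299 kb from Bmp4 (the phosphatase gene Cdkn3 and the pseudogene Gm1821). All 6 tested neighbours of Spg20 lay before its start, the nearest being the pseudogene Gm10254 at 300.9 kb (log2 change -0.26, adjusted p = 0.179 in edgeR). Of the 76 annotated genes around Smim10l1, 1 had a row, the ETS factor Etv6 at 925 kb, at 36.1 and 36.1 against 29.6 and 30.5 CPM (-0.26 ± 0.08, adjusted p = 0.108 in edgeR, or 0.0494 to 0.699 over the alternatives). Around Lacc1, Bmp4, Ly6k, Smim10l1 and Spg20, 0 of 5, 18, 12, 1 and 6 tested neighbours were called by edgeR, DESeq2 or limma-voom. Those with a raw edgeR p below 0.05 numbered 0, 1, 2, 1 and 1, and there were 7 of 22 around Tspoap1 and 5 of 14 around Pcyox1l. In all 17 of the 78 neighbours (21.8%) had such a p, against 2013 of 11945 tested genes (16.9%).

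**Figure D4:**
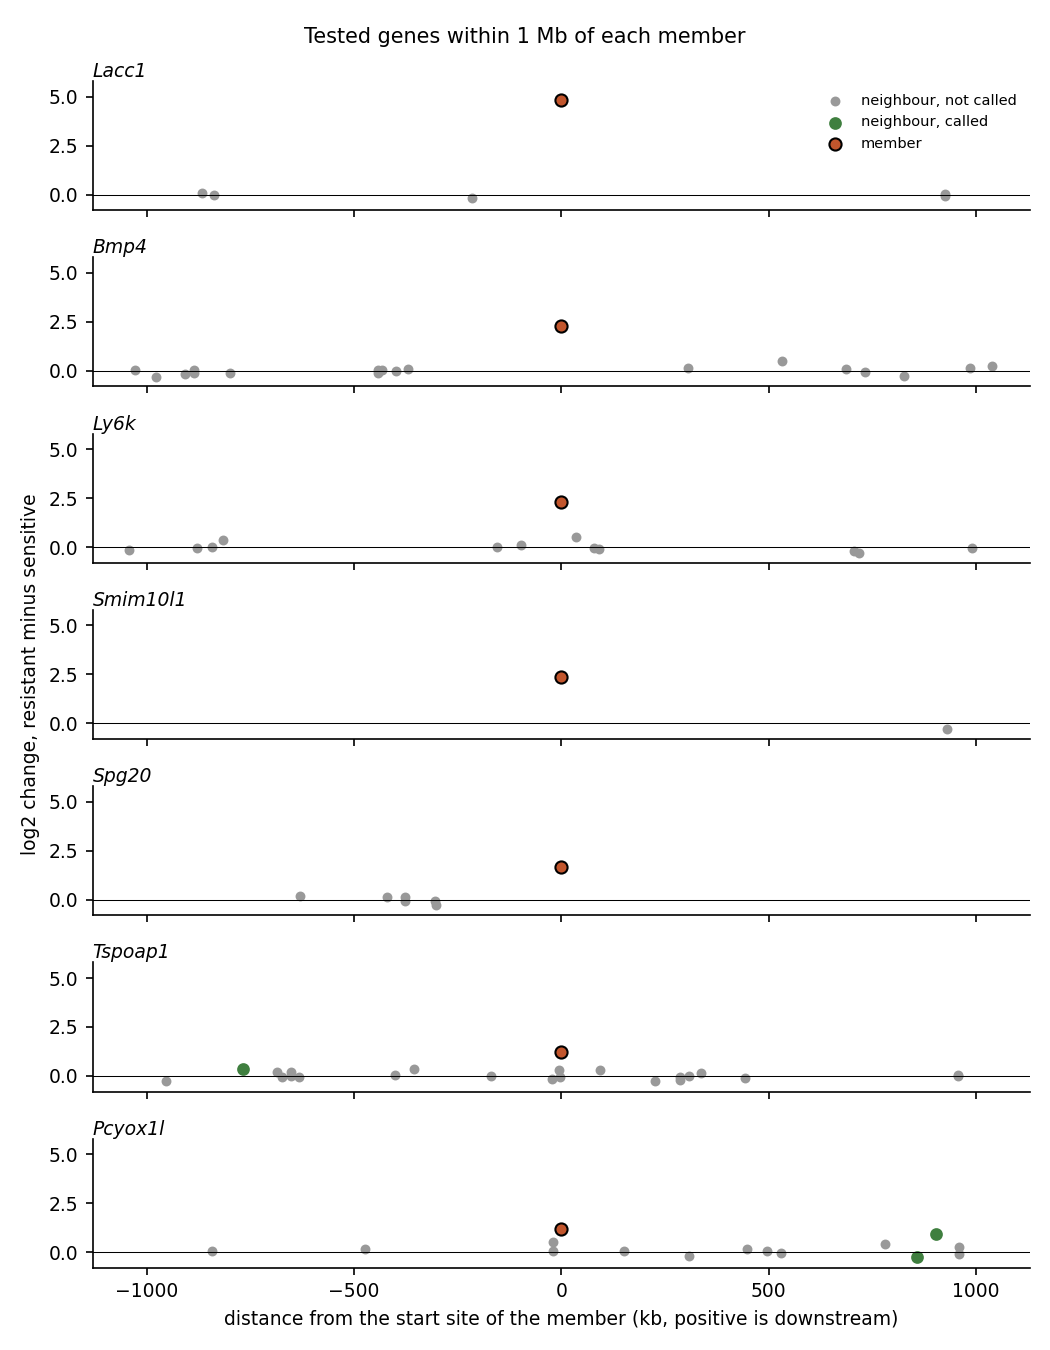
Log2 change between the lines (vertical axis) against distance from the start site of each of the 7 genes (horizontal axis, kb), with the gene itself in orange, called neighbours in green and other tested neighbours in grey. The orange point is the highest in each panel, and the 3 called neighbours lie 767 kb or more from Tspoap1 or Pcyox1l. In the panel of Pcyox1l (1.195) the called neighbour Cd74 stands at 0.94. Neighbours below the filter on low counts, such as Gm17189 beside Ly6k, are not shown.

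Genes of the pathways and families of the 7 were read from 16 lists with 282 other symbols, of which 187 had a row and 154 were tested. In all, 2 rose and 3 fell in resistant cells, 5 of 154 or 3.25%, close to the 3.73% called over all tested genes. The median log2 change of the 154 was 0.005. A raw edgeR p below 0.05 was found for 25 of the 154 (16.2%), against 16.9% of all tested genes, and the raw counts for single lists are read against that share. DESeq2 called 0 of the 154 (9 at its own raw p below 0.05) and limma-voom called 5.

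The BMP pathway had its receptors, SMADs and targets at moderate or low levels. Besides Bmp4, only Bmp6, Bmp7 and Bmp8b of 13 other ligands had a row, each at 0.164 CPM or less on average, and none was tested. Of 4 tested receptors 0 were called by edgeR, DESeq2 or limma-voom, and 0 had a raw edgeR p below 0.05. The type I receptor Bmpr1a was at 6.35 and 6.60 CPM on average (log2 change 0.03 ± 0.18) and the type II receptor Bmpr2 at 3.57 and 3.99 CPM (0.15 ± 0.22). Of 5 tested SMAD and SMURF genes 0 were called by any of the 3 tools, while 2 had a raw edgeR p below 0.05. They included the receptor SMAD Smad5 (67.9 and 70.0 CPM) and the inhibitory Smad7 (24.7 and 30.6 CPM, 0.31 ± 0.09, adjusted p = 0.0859 in edgeR). The extracellular BMP modulators Fstl1 (0.64, adjusted p = 0.0862) and Twsg1 (0.29, adjusted p = 0.144) did not pass the edgeR test. They were the 2 tested genes of their list, and both had a raw edgeR p below 0.05.

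Of 9 listed BMP target genes 5 had a row and 3 were tested. Among these, Id2 and Id3, which encode inhibitors of basic helix-loop-helix factors, moved in opposite directions. Id2 rose from 0.847 and 1.36 CPM to 2.29 and 3.53 CPM (log2 change 1.44 ± 0.35, adjusted p = 0.0285 in edgeR). Id3 fell from 30.9 and 30.5 CPM to 21.7 and 25.6 CPM (-0.37 ± 0.10, adjusted p = 0.0485 in edgeR). Neither pair of libraries overlapped the other, and the third tested target, Atoh8, had a log2 change of 0.68 with an adjusted p of 0.170 (edgeR). All 3 tested targets had a raw edgeR p below 0.05, and edgeR called Id2 and Id3. Both calls were lost with DESeq2, that of Id2 also when sensitive replicate 1 or resistant replicate 2 was omitted, and that of Id3 without resistant replicate 1 and with library-size or upper-quartile scaling. Over the 11 alternatives adjusted p-values ran from 0.00177 to 0.38 for Id2 and from 0.00427 to 0.509 for Id3.

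Related to Lacc1, 11 genes of purine nucleoside cleavage and salvage were tested and 0 were called by edgeR, DESeq2 or limma-voom, while 2 had a raw edgeR p below 0.05. The median log2 change of the 11 was -0.11. Among them were the adenosine deaminase Ada (-0.14 ± 0.10) and the methylthioadenosine phosphorylase Mtap (-0.14 ± 0.06). Of 9 tested enzymes of arginine, citrulline and polyamine metabolism 1 fell, Ddah2, a hydrolase of methylated arginine. A raw edgeR p below 0.05 was found for 3 of the 9. Ddah2 was at 7.004 and 7.473 CPM in the sensitive libraries against 3.57 and 3.61 CPM (-1.005 ± 0.185, adjusted p = 0.00391 in edgeR), and only DESeq2 among the 11 alternatives did not call it (adjusted p = 0.093, with a lowest value of 3.74e-05). The polyamine enzyme Odc1 stood at 526 and 531 CPM. NOD2 signalling genes, a pathway in which Lacc1 acts in macrophages, had 0 of 10 called by the 3 tools and 1 had a raw edgeR p below 0.05.

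For Spg20, 28 other hereditary spastic paraplegia genes were tested, among them Spast (83.5 and 87.7 CPM) and Spg11 (33.8 and 33.9 CPM). By edgeR, DESeq2 and limma-voom 0 were called, while 5 had a raw edgeR p below 0.05. The median log2 change of the 28 was 0.018. Of 17 genes of ESCRT-III, VPS4 and the ubiquitin ligases that bind spartin, 0 were called by the 3 tools, 1 had a raw edgeR p below 0.05, and Itch was at 81.8 and 81.4 CPM. Of 12 lipid droplet genes 0 were called and 1 had an unadjusted p below 0.05. The droplet coat gene Plin2 was at 6.36 and 8.14 CPM (0.35 ± 0.17, adjusted p = 0.313 in edgeR).

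For Tspoap1, the 11 tested genes of the TSPO complex included Tspo itself at 43.4 and 41.0 CPM (log2 change -0.09 ± 0.09), and 0 were called by edgeR, DESeq2 or limma-voom or had a raw edgeR p below 0.05. Active zone genes, with which RIM-binding proteins work in neurons, had 7 tested members and 0 called, with 1 at an unadjusted p below 0.05, the calcium channel gene Cacna1d (0.715 and 1.45 CPM).

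For Pcyox1l, 14 genes of protein prenylation were tested, and Fdps rose and Chml fell. A raw edgeR p below 0.05 was found for 3 of the 14. Fdps, which encodes farnesyl diphosphate synthase of the isoprenoid pathway, was at 71.0 and 65.9 CPM in the sensitive libraries against 85.8 and 81.1 CPM (log2 change 0.28 ± 0.07, adjusted p = 0.0324 in edgeR). Chml, a Rab escort protein gene, went from 80.0 and 75.9 to 62.3 and 61.1 CPM (-0.34 ± 0.07, adjusted p = 0.00823 in edgeR). The paralog Pcyox1 stood at 39.8 and 39.9 CPM (0.001 ± 0.080). The calls of Fdps and Chml were lost with DESeq2 and without either resistant library, with adjusted p-values over the alternatives from 1.05e-04 to 0.388 for Fdps and from 3.49e-06 to 0.144 for Chml.

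Among relatives by name, 7 other LY6 and uPAR family genes and 14 other Smim genes were tested. By edgeR, DESeq2 and limma-voom 0 of each were called, while 0 and 1 had a raw edgeR p below 0.05. The Smim genes had a median log2 change of 0.14 with 12 of 14 positive, from -0.20 (Smim13) to 0.41 (Smim27).

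**Figure D5:**
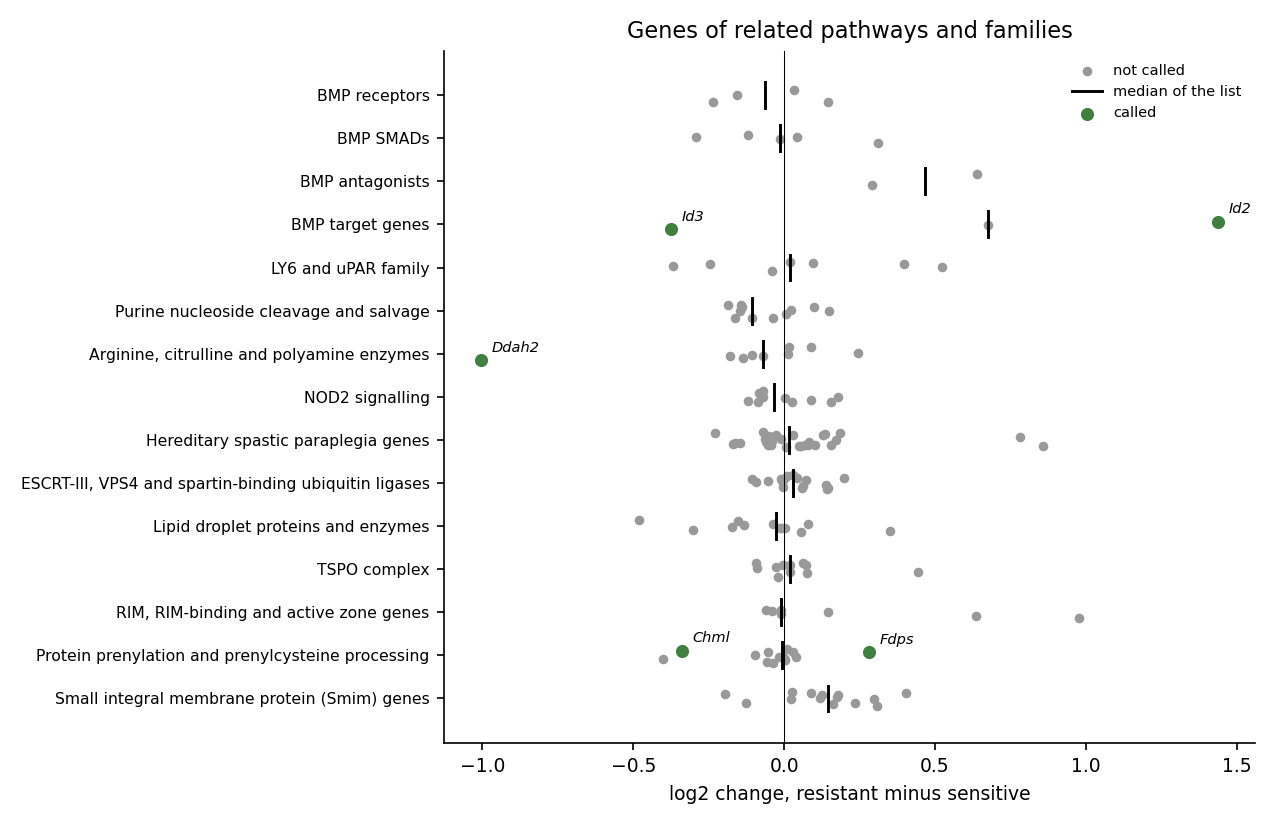
Log2 change between the lines (horizontal axis) for each tested gene of 15 lists (rows), with called genes in green and named, other genes in grey and a bar at the median of each list. Most points lie near 0, and the 5 called genes are Id2 and Fdps on the right and Id3, Ddah2 and Chml on the left.

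Genes with the most similar profile were found by Euclidean distance in log2 CPM over the 4 libraries, a measure that takes in both level and difference. For Pcyox1l the closest were Trim5 (distance 0.25) and Zfp362 (0.387), and for Tspoap1 the potassium channel gene Kcnk1 (0.418) and the receptor gene Igf2r (0.459). Kcnk1 was also closest to Spg20 (0.748), followed by Serpinb1a (0.757). The formin gene Daam1 was closest to Smim10l1 (0.461) and the second closest to Ly6k (0.881). Its counts were 35 and 37 in sensitive and 136 and 140 in resistant libraries. The immunoglobulin genes Igkv3-10 (0.546 from Smim10l1) and Igkv3-7 (0.819 from Ly6k) also appeared, and counts of such similar V genes are uncertain. Platr27 (0.423) and Fbxw17 (0.593) were closest to Bmp4. Lacc1 had no close match, since G730013B05Rik at 1.7 and Gm7461 at 1.85 were its nearest genes. G730013B05Rik had 9 and 9 counts in the sensitive and 103 and 127 in the resistant libraries.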

How the data were processed

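Per the labels' protocols, RNA came from a NucleoSpin extraction and was sequenced as TruSeq RNA libraries. The values are the authors' deposited counts, whole reads per Ensembl gene without normalization, in 1 table of 16591 genes whose lowest summed count was 4. The submitters' processing notes list HTSeq, TopHat, Bowtie2, cutadapt 1.7, FastQC and limma, with GRCm38 and mm10. How strand was counted, and against which annotation, is not given in the sources used here. Symbols, positions and exon lengths came from GENCODE M21 (GRCm38), which matched 16407 identifiers.

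Counts were fitted with edgeR 4.0.16 in R 4.3.3 (quasi-likelihood, TMM scaling, group alone, filterByExpr with at least 10 counts and a total of 15), with Benjamini-Hochberg adjustment and calls at an adjusted p below 0.05. Standard errors came from the F statistic. The fit was tested on simulated counts with a common dispersion for all genes. It recovered 25 of 50 genes changed 1.25-fold, 46 of 50 changed 1.5-fold and 50 of 50 changed 2-fold. In the same simulation 6 unchanged genes were called. Changes were placed only in genes above a minimum level, so recovery at the lowest levels was not tested. Alternatives were DESeq2 1.42.0, limma-voom (limma 3.58.1), 3 other scalings, no filter, a replicate block, each library left out, and windows of 250 kb and 2 Mb. Profile distances used a prior count of 2. Named genes were the 7 members, called neighbours, the nearest tested gene on each side, called list genes and the 2 closest profiles per member; values of the other list and marker genes, Ly6e, Gm17189 and the closing section's genes had been seen when they were chosen. The members and lists were chosen with earlier results of these data known. Replicate libraries differed by more than sampling noise (chi-square per degree of freedom 4.09 and 1.79). A listed marker gene is not reported here.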

Additional observations from a re-analysis of the deposited data

How the results depend on the processing

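The sign of the difference held for all 7 members under the 11 alternatives, which gave log2 changes from 4.67 to 4.99 for Lacc1, 2.11 to 2.44 for Bmp4 and 1.16 to 1.23 for Pcyox1l. Leaving out 1 library at a time gave a median log2 change of the 7 from 1.88 (without sensitive replicate 1) to 2.44 (without sensitive replicate 2), against 2.29. DESeq2 called 208 genes in place of 445, 1 neighbour in place of 3 and 0 list genes in place of 5. With 1 library left out, the called genes numbered 270 to 1381, the called neighbours 1 to 11 and the called list genes 2 to 16. With a library left out, its line has 1 library, which is assumed to vary like the other line. The cause of these shifts was not tested. With no filter 5 neighbours were called, now out of 102 tested, with Rps14 and Gm17189 added. A window of 250 kb held 15 tested neighbours and 0 called by edgeR, with 5 at a raw p below 0.05 (16.9% of all tested genes had such a p), and a window of 2 Mb held 184 and 7. Over the named genes that are not members, 200 results kept their side of the threshold, 19 lost a call and 1 gained one.

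The replicate numbers are not stated to pair the libraries, and the differences between replicates 1 and 2 in the lines had a correlation of -0.02 over genes. With the replicate block 595 genes, 4 neighbours and 6 list genes were called, and the median log2 change of the members was 2.28. In sensitive cells Lacc1 rests on 6 and Bmp4 on 14 counts in all, which limits their folds.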

Other observations

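A few genes within 1 Mb of the 7 were below the filter on low counts and are given as counts only, chosen after their values were seen. Csf1r, the macrophage colony-stimulating factor receptor, lies 565 kb from Pcyox1l and had 1 and 0 counts in the sensitive and 5 and 3 in the resistant libraries. Beside Ly6k, Lynx1 had 1 and 0 against 2 and 4 counts, and D730001G18Rik had 0 and 0 against 4 and 0. Mpo, the myeloperoxidase gene 7.65 kb from Tspoap1, had 0 and 2 against 2 and 0 counts.

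Between 1 and 2 Mb from a member, another 4 genes were called higher in resistant cells by edgeR. They were the endoplasmic reticulum oxidase Ero1l near Bmp4 (log2 change 0.43, adjusted p = 7.75e-04), the cell-cycle inhibitor Cdkn1b near Smim10l1 (0.38, adjusted p = 0.00737), Gm11478 near Tspoap1 (0.32, adjusted p = 0.00789) and the translation-associated gene Tpt1 near Lacc1 (0.21, adjusted p = 0.0257). Within the 2 Mb window 7 of 184 tested genes were called, or 3.8%, beside 3.73% over all tested genes.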
